A study of Mus musculus with 20 samples.

Results

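The array used here carried 66 probes for N6-methyladenosine (m6A) whose names mark them as controls of the RRACA motif, out of 14408 probes with m6A site identifiers. They were chosen by name alone: 24 probe names hold RRACAPOSCONTROL (called positive control probes below) and 42 hold RRACACONTROL (called control probes). The scanner files do not flag these 66 as control spots, and the sources used here do not say what each of them was designed to control. They were measured in myocardium of 10 male mice, 5 lacking natriuretic peptide receptor A (genotype NPRA-/-, KO for short) and 5 with the intact gene (NPRA+/+, WT for short). The knockout model is described as conditional, from mice with a floxed NprA gene, and the series title calls it cardiac-specific. The Cre line or promoter, the age of the mice and whether the WT mice carried floxed alleles or Cre are not given in the sources used here. No mouse was treated. Each mouse had 1 two-colour array: the Cy5 channel held RNA cut with MazF and pulled down with an m6A antibody (the modified RNA), and the Cy3 channel held uncut RNA of the same mouse (the input).

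m6A is the most abundant internal mark of mRNA, laid down by the METTL3-METTL14 writer complex on the central adenosine of short motifs such as RRACA, where R is A or G. MazF is a bacterial endoribonuclease that cuts RNA at ACA and leaves the motif intact when its first adenosine is methylated, so RNA methylated at its ACA sites escapes the cut. NPRA is the membrane receptor for atrial and B-type natriuretic peptides and produces cyclic GMP, and in the heart it is known for restraining growth and fibrosis. Because the control probes were printed several times on each array, the error of a single spot can be set beside the difference between mice.

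The repeated printing followed the name class. Of the positive control probes, 22 had 10 spots each on every array, 220 spots in all, and 2 had 3 spots each. Each of the 42 control probes had 3 spots, 126 in all. This gave 352 spots per array and 3520 over the 10 arrays. Of these, 94 in Cy5 and 162 in Cy3 were flagged as outliers in the files and left out unless said otherwise. In Cy5, 334 of the 3520 spots were not significantly above 0 after background subtraction, against 9 in Cy3, and 0 spots were saturated. Slides were told apart by scan date: arrays with the scan date of the KO arrays were taken as slide 1 and the others as slide 2. By this rule the KO arrays were all on slide 1, together with WT replicates 1 to 3, and WT replicates 4 and 5 were on slide 2. A probe's level is given below as log2 signal averaged over its spots and set relative to the 75th percentile of its array, so that 0 is a bright probe of that array. The modified/input ratio is given as log2 Cy5 over Cy3 relative to the median site probe, so that a negative value lies below the typical site. Precision is limited by the number of arrays.

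The 2 name classes hardly differed in the modified/input ratio. Averaged over the probes of a class, the log2 ratio of the positive control probes minus that of the control probes was 0.08, 0.05, 0.07, -0.09 and 0.07 in KO replicates 1 to 5 and 0.12, -0.02, -0.04, 0.00 and 0.01 in WT replicates 1 to 5. The difference was above 0 in 7 of 10 mice, with a mean of 0.02 ± 0.06 (SD, n = 10), so its size was below the spread between mice. In KO mice it was 0.04 ± 0.07 (SD, n = 5) and in WT mice 0.01 ± 0.06 (SD, n = 5). The sign depended on which probes entered: with the members well above background on at least 5 arrays alone, the mean difference was -0.33, and with the class medians in place of the means it was -0.04. The name positive control therefore did not go with a higher ratio in these data.

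In the single channels the positive control class was dimmer than the control class in every mouse. The mean log2 Cy5 difference was -0.18 ± 0.06 (SD, n = 10), and it ran from -0.25 in KO replicate 2 to -0.03 in KO replicate 3. In Cy3 it was -0.20 ± 0.08 (SD, n = 10), from -0.33 in KO replicate 1 to -0.10 in KO replicate 3. Both turned positive when the members detected on at least 5 arrays alone were averaged, to 0.16 in Cy5 and 0.02 in Cy3, and the Cy3 difference was 0.45 between class medians. Brightness also depends on the sequence of a probe, so these differences between classes are descriptions and carry no test.

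Neither class stood at the high end of the ratio among the other site probes that passed the filter, 10002 of 14342. Of the control probes 15 of 42 lay above the median ratio of the other probes that passed the filter, and of the positive control probes 5 of 24. The median control probe lay at percentile 33.7 of the other probes and the median positive control probe at percentile 35.1. No member of either class reached the top 10% of the other probes, while 12 control and 5 positive control probes fell in the bottom 10%. Their input was bright by comparison, with the median member at percentile 73.0 (control) and 79.0 (positive control) of 13875 other probes in Cy3. In Cy5 the median member lay at percentile 39.4 of 10025 other probes in both classes. All these ranks set every member, kept or not, against other probes that passed the filter. In Cy5 9 control and 6 positive control probes did not pass it, against 0 and 1 in Cy3. The percentiles of the 2 channels therefore rest on unlike sets. The mean ratio of single probes ran from -5.41 to 1.62 among the control probes and from -3.38 to 0.73 among the positive control probes.

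The low ratios were mostly those of the probes with the brightest input. Among the 22 members with the brightest Cy3 the median log2 ratio was -2.37, in the middle 22 it was -0.50, and in the dimmest 22 it was 0.00. Both classes showed this order, since the medians from brightest to dimmest were -1.96, -0.83 and -0.02 for positive control probes and -2.42, -0.41 and 0.53 for control probes. Across the 66 members Pearson's r was 0.86 between the mean log2 levels of Cy5 and Cy3 and -0.50 between Cy3 and the ratio. These correlations are descriptions, since the probes share the same 10 arrays and the ratio holds Cy3 in its denominator. Of the dimmest 22 members, 10 were well above background in Cy5 on at least 5 arrays and 9 on none. Many of the ratios behind their median therefore rest on Cy5 signals near the floor.

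Detection separated the channels. In Cy3, 63 of the 66 members were well above background on all 10 arrays, among them all 42 control probes. In Cy5, 31 members were well above background on all 10 arrays, 25 on some and 10 on none. The 10 that were never detected were 5 positive control and 5 control probes, and 9 of them were among the dimmest 22 in Cy3. In KO mice 18 to 19 of the 24 positive control probes were detected in Cy5, and in WT mice 12 to 19. For the control probes the numbers were 32 to 35 of 42 in KO mice and 20 to 35 in WT mice. The lowest counts came from slide 2, with 14 and 22 members of the 2 classes in WT replicate 4 and 12 and 20 in WT replicate 5. Where KO and WT mice shared slide 1, the WT counts were 17 to 19 and 29 to 35. Of the 14342 other site probes, 64.0 to 74.9% were detected in Cy5 in KO mice and 45.1 to 78.1% in WT mice. WT replicates 4 and 5 were lowest there too, at 47.9% and 45.1%. In Cy3 the share was 93.6 to 97.9% over the 10 arrays. These patterns of detection were therefore not particular to the members.

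The brightest modified RNA among the positive control probes was at ASMM10m6ARRACAPOSCONTROL1000010794, which also had the highest ratio of its class. Its log2 ratio was 1.16, 1.27, 0.28, 0.65 and 0.73 in KO replicates 1 to 5 and 0.48, 0.39, 0.42, 0.90 and 0.99 in WT replicates 1 to 5. The 2 genotypes overlapped, KO replicates 1 and 2 being highest. At the other end of the class stood ASMM10m6ARRACAPOSCONTROL1000177044, which had the brightest input of the class and its lowest ratio. Its log2 ratio was -2.26, -2.29, -3.94, -3.38 and -3.50 in KO mice and -3.78, -3.83, -4.44, -3.22 and -3.10 in WT mice. KO replicates 1 and 2 were again the highest of the 10, and the others of both genotypes overlapped.

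Among the control probes the highest ratio was at ASMM10m6ARRACACONTROL1000455614, at 1.69, 1.60, 1.58, 1.36 and 2.09 in KO mice and 1.36, 1.09, 1.58, 1.92 and 1.93 in WT mice, with full overlap. The lowest was at ASMM10m6ARRACACONTROL1000357364, at -5.41 on average in both genotypes, but its Cy5 signal was well above background in 2 KO mice and 0 WT mice, so most of these values are only upper bounds. The brightest modified RNA of all 66 members was at ASMM10m6ARRACACONTROL1000460174, with a log2 Cy5 level of 4.91 ± 0.58 in KO and 4.44 ± 0.27 in WT mice (SD, n = 5 each), so the difference lay within 1 SD of the KO mice. At the floor of Cy5 stood ASMM10m6ARRACACONTROL1000106524, ASMM10m6ARRACACONTROL1000549114 and ASMM10m6ARRACAPOSCONTROL1000085514, which were not well above background on any array. For the last of these the same held in Cy3, and it was the 1 member not tested in that channel.

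The numbers in 2 of the positive control names depart from the rest, beginning with 2 and 3 where the other members' numbers begin with 1, and these were also the 2 with 3 spots. ASMM10m6ARRACAPOSCONTROL2000000004 was not well above background in Cy5 on any array, and in Cy3 it was on 9, with a mean log2 Cy3 level of -4.43 ± 0.30 in KO and -4.14 ± 0.26 in WT mice (SD, n = 5 each). ASMM10m6ARRACAPOSCONTROL3000000004 was detected in both channels on all 10 arrays. Its log2 ratio was -0.49 ± 0.19 in KO and -0.48 ± 0.14 in WT mice (SD, n = 5 each), a difference far below the spread between mice.

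The first comparison of genotypes asked whether the modified/input ratio of these probes differed between KO and WT myocardium. None did by the test: 0 of the 51 members kept by the filter had a limma adjusted p under 0.05, and 0% of all 10053 site probes tested did. The smallest adjusted p among the members was 0.321. At an unadjusted p under 0.05 there were 2 members, against 8.92% of all probes tested. The fitted change was above 0 for 36 of the 51 members, where 58.5% of all probes tested were, and its median was 0.09 on the log2 scale against 0.06 over all probes. Scaling to the spike-in probes instead moved the median over all probes to -0.07, and 22 of the 51 members were then above 0. The standard error of the change ran from 0.16 to 0.41 over the members, so shifts of that order could not be told from 0. The other 15 members were not tested, since they were too rarely above background in Cy5.

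In 2 members all KO mice had a lower ratio than all WT mice, where 1.06% of the probes tested lay wholly below and 1.61% did not overlap in either direction. For ASMM10m6ARRACACONTROL1000468964 the log2 ratio was 0.67, 1.17, 0.85, 0.97 and 1.02 in KO replicates 1 to 5 and 1.60, 1.37, 1.72, 2.05 and 1.19 in WT replicates 1 to 5. Every KO mouse lay below the lowest WT mouse, by a narrow margin of KO replicate 2 to WT replicate 5. The fitted change was -0.65 with a standard error of 0.20 and a limma adjusted p of 0.321. For ASMM10m6ARRACAPOSCONTROL1000136344 the ratio was -0.45, -0.39, -0.04, -0.40 and -0.16 in KO mice and 0.46, 0.15, -0.04, 0.00 and -0.01 in WT mice. KO replicate 3 and WT replicate 3 were nearly equal there. The change was -0.40 with a standard error of 0.18 and an adjusted p of 0.531, and the Cy5 signal was well above background in 5 KO and only 2 WT mice.

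The largest fitted rises in the ratio did not pass either. ASMM10m6ARRACAPOSCONTROL1000177044, whose values are given above, had a change of 0.60 with a standard error of 0.34 (limma adjusted p = 0.629). ASMM10m6ARRACACONTROL1000275074 had a log2 ratio of -1.65, -1.40, -3.10, -2.12 and -2.37 in KO mice and -3.09, -2.51, -2.99, -2.46 and -2.19 in WT mice. KO replicates 1 and 2 were highest and KO replicate 3 was lowest of all 10. Its change was 0.52 with a standard error of 0.30 (adjusted p = 0.625). In both probes the KO mice differed among themselves by more than the 2 genotypes did.

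In the modified RNA (Cy5) 1 of 51 members passed, a control probe that was lower in KO mice, against 1.14% of 10076 probes tested and 0.933% called lower. For ASMM10m6ARRACACONTROL1000468964 the scaled log2 Cy5 level was -2.86, -2.66, -2.09, -2.14 and -2.58 in KO replicates 1 to 5 and -1.06, -1.77, -1.34, -1.03 and -1.64 in WT replicates 1 to 5. The 2 groups did not overlap. The change was -1.10 on the log2 scale, a 2.14-fold lower signal, with a standard error of 0.22 and a limma adjusted p of 0.0383. Within slide 1 the change was -1.08 with an adjusted p of 0.0396. Its input was -3.02 in KO and -2.49 in WT mice, a change of -0.53 with a standard error of 0.16 that did not pass in Cy3 (adjusted p = 0.108). With normexp background correction at offset 50 the Cy5 change was -0.35, and over the 24 alternatives it ran from -1.20 to -0.35. The call was narrow: leaving out KO replicate 1 gave an adjusted p of 0.136, and over the same alternatives it ran from 0.0230 to 0.238. Leaving out KO replicate 2 or 5 or WT replicate 1, 3 or 4 also ended the call.

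At an unadjusted p under 0.05 there were 9 members in Cy5, that one included, where 16.2% of all probes tested did. The fitted change was above 0 for 38 of the 51 members against 58.1% of all probes, with a median of 0.21 against 0.08. This depended on the processing: with normexp offset 50, 22 of the 51 were above 0, with a median of -0.03 against -0.10 over all probes. With no filter on dim probes 41 of 66 were above 0. Some members passed the filter mainly through KO mice, such as ASMM10m6ARRACACONTROL1000482444, detected in Cy5 in 4 KO mice and 1 WT mouse. In 3 members all KO mice lay above all WT mice, and in 1 below, where 1.97% of all probes tested lay wholly above, 1.89% wholly below and 3.85% one or the other. The 3 were ASMM10m6ARRACAPOSCONTROL1000055724, ASMM10m6ARRACACONTROL1000090194 and ASMM10m6ARRACACONTROL1000265584, named here after their values were seen. The first was at -1.10, -1.11, -1.0, -1.50 and -1.68 in KO mice and -1.84, -2.05, -2.0, -2.22 and -2.09 in WT mice. Its change was 0.76 with a standard error of 0.19 (limma adjusted p = 0.0720), and the change had the same sign in both channels of this probe. The second was at 0.75, -0.02, 0.27, -0.56 and -0.12 in KO mice and at -0.62, -0.92, -0.69, -1.12 and -0.85 in WT mice, KO replicate 4 being only just above WT replicate 1. Its change was 0.90 with a standard error of 0.24 (adjusted p = 0.0801). The third had a change of 0.36 with a standard error of 0.19 (adjusted p = 0.368), fitted on 4 KO mice because all its Cy5 spots in KO replicate 5 were flagged as outliers.

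The largest fitted rise and fall of the 2 classes in Cy5 did not pass, apart from the called control probe. ASMM10m6ARRACACONTROL1000528974 was at 1.51, 2.51, -0.17, 0.47 and 0.92 in KO mice and at 0.05, 0.34, -0.02, 0.13 and 0.03 in WT mice. The WT mice lay close together and the KO mice were spread from below them to far above. The change was 0.94 with a standard error of 0.38 (limma adjusted p = 0.254). ASMM10m6ARRACAPOSCONTROL1000164934 was at 1.08, 1.36, 0.22, 0.43 and 0.95 in KO and at -0.12, 0.25, 0.17, -0.09 and -0.21 in WT mice. Only KO replicate 3 fell within the WT range, and the change was 0.81 with a standard error of 0.23 (adjusted p = 0.115). The largest fall among positive control probes was at ASMM10m6ARRACAPOSCONTROL1000119854, at -0.41 with a standard error of 0.22 (adjusted p = 0.370).

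In the input (Cy3) 1 of 65 members passed, a control probe that was higher in KO mice, against 1.66% of 13940 probes tested, 0.617% called higher and 1.05% called lower. For ASMM10m6ARRACACONTROL1000482444 the scaled log2 Cy3 level was 1.13, 1.20, 0.62, 0.61 and 1.06 in KO replicates 1 to 5 and -0.21, -0.04, 0.33, 0.36 and 0.29 in WT replicates 1 to 5. No WT mouse reached the lowest KO mouse. The level was 0.77 higher on the log2 scale, or 1.71-fold, with a standard error of 0.16 and a limma adjusted p of 0.0368. In a bulk tissue more cells of a type and more RNA per cell cannot be told apart. Within slide 1 the change was 0.89, but its adjusted p was 0.116, and with slide as a block it was 0.0737, so the call did not hold there. It was also lost when KO replicate 1, 2 or 5 or WT replicate 1, 2, 4 or 5 was left out, and over the 24 alternatives the adjusted p ran from 0.0102 to 0.208. In Cy5 this probe was well above background in 4 KO mice and 1 WT mouse.

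In 5 members all KO mice had a higher input than all WT mice, and in 0 a lower one, where 4.62% of all probes tested did not overlap, 2.52% wholly higher and 2.1% wholly lower. Besides the called probe these were ASMM10m6ARRACAPOSCONTROL1000055724, ASMM10m6ARRACAPOSCONTROL1000136344, ASMM10m6ARRACACONTROL1000020794 and ASMM10m6ARRACACONTROL1000090194, all but the first named after their values were seen. The first was at 0.77, 1.06, 0.12, 0.40 and 0.57 in KO mice and at 0.03, -0.19, 0.07, -0.15 and -0.12 in WT mice. KO replicate 3 was only just above WT replicate 3. Its change was 0.66 with a standard error of 0.16 (limma adjusted p = 0.0595), and it passed without KO replicate 3 (adjusted p = 0.0142) or without WT replicate 3 (adjusted p = 0.0359). The second was at -2.22, -2.27, -2.62, -2.04 and -2.51 in KO mice and at -2.77, -2.85, -3.15, -2.82 and -2.80 in WT mice, a change of 0.55 with a standard error of 0.13 (adjusted p = 0.0573).

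As a group the members had no common direction in the input, relative to the 75th percentile of the array. The fitted change was above 0 for 31 and below 0 for 34 of the 65 members tested, with a median of -0.01 against -0.06 over all probes, of which 39.5% were above 0. This balance depended on the scaling: relative to the spike-in probes 46 of the 65 members were above 0 with a median of 0.17, while the median over all probes moved from -0.06 to 0.11. At an unadjusted p under 0.05 there were 10 members, where 19.9% of all probes tested passed it. Of the 232 probes called in Cy3 over the whole array, 86 were higher and 146 lower in KO mice, and with quantile normalization the split was 165 and 124. The number of calls depended most on both mice numbered 3: the members called rose from 1 to 6 without KO replicate 3, to 6 without WT replicate 3 and to 17 without both, 9 of these higher and 8 lower. The whole array followed, with 583, 1030 and 2334 probes called. These 2 mice were left out together after their values were seen.

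The largest fitted fall in the input within each class was at ASMM10m6ARRACACONTROL1000060324 for control probes and at ASMM10m6ARRACAPOSCONTROL1000041554 for positive control probes. The control probe was at -1.18, -1.58, -0.33, -0.84 and -1.30 in KO replicates 1 to 5 and at -0.48, -0.42, -0.81, -0.44 and -0.39 in WT replicates 1 to 5. KO replicate 3 was the highest of all 10 mice and WT replicate 3 the lowest WT mouse. The change was -0.54 with a standard error of 0.20 (limma adjusted p = 0.179), and without KO replicate 3 it was -0.72 (adjusted p = 0.0301). The positive control probe was at -4.01, -4.38, -3.21, -3.70 and -4.26 in KO mice and at -3.42, -3.51, -3.80, -3.37 and -3.34 in WT mice, with a change of -0.42 and a standard error of 0.20 (adjusted p = 0.259). There too KO replicate 3 was highest and WT replicate 3 was lowest within its group.

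Repeated spots gave the spread within an array, set here beside that between mice. Spots of the same array share RNA, labelling and hybridisation, so their spread holds spotting and reading error only. Mouse and array coincide in these data. The SD between mice therefore also holds any difference in RNA preparation, labelling, hybridisation or slide, which cannot be told from differences between animals. The pooled SD between spots of a probe on the same array had a median over the 66 members of 0.0524 in log2 Cy3, 0.209 in Cy5 and 0.193 in the ratio. The SD between mice of the same genotype, after averaging spots, had a median of 0.256 in Cy3, 0.393 in Cy5 and 0.343 in the ratio. The mouse SD exceeded the spot SD in 61 of 66 members in Cy3, in 48 in Cy5 and in 42 in the ratio. The mouse values average 3 to 10 spots, and the error of such an average, the spot SD over the root of the number of spots, had a median of 0.0233 in Cy3, 0.109 in Cy5 and 0.0981 in the ratio. At the median it was below the SD between mice in all 3 measures.

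The spot error followed brightness. In Cy5 the median spot SD was 0.510 in the dimmest 22 members, 0.222 in the middle 22 and 0.0820 in the brightest 22, whereas the SD between mice was 0.520, 0.316 and 0.441. In Cy3 the corresponding spot SDs were 0.130, 0.0489 and 0.0335, and the mouse SDs 0.256, 0.238 and 0.267. The spread between mice thus hardly followed brightness while the spread between spots fell several times. Outlying spots mattered as well: with flagged spots kept, the median spot SD was 0.0575 in Cy3, 0.248 in Cy5 and 0.235 in the ratio.

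The tightest and loosest probes show the range. In Cy3 the smallest spot SD was 0.0196, at ASMM10m6ARRACACONTROL1000541264, and the largest was 0.538, at ASMM10m6ARRACAPOSCONTROL1000085514, the member not above background there. In Cy5 the smallest was 0.0409, at ASMM10m6ARRACACONTROL1000515844, and the largest 0.695, at ASMM10m6ARRACACONTROL1000549114. The probe tightest in Cy5 also had the smallest spot SD of the ratio, 0.0497, and ASMM10m6ARRACACONTROL1000235314 the largest, 0.703. Among the well measured probes some varied widely between mice. The control probe with the brightest input, ASMM10m6ARRACACONTROL1000510134, had a spot SD of 0.0393 and a mouse SD of 0.786. Its log2 Cy3 level was 8.40, 8.10, 6.55, 7.21 and 6.68 in KO mice and 8.02, 7.78, 6.14, 7.67 and 7.40 in WT mice. KO replicates 1 and 2 and WT replicates 1, 2 and 4 were high. Both mice numbered 3 were the lowest of their genotype, with KO replicate 5 close to KO replicate 3. The change between genotypes was -0.01 with a standard error of 0.41 (limma adjusted p = 0.990), a sign that turned in 14 of 24 alternatives.

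Averaging spots lowered the spread between mice where the spots were noisy. The values of this paragraph include the spots flagged as outliers. For the 22 positive control probes with 10 spots, the median SD between mice was 0.456 in Cy5 when 1 spot was used and 0.368 with all spots averaged. In Cy3 the values were 0.272 and 0.262, so there was little to gain in the input. A single spot could also give another answer about genotype. The KO minus WT difference computed from each of the 10 spots alone differed, from the lowest to the highest spot, by a median of 0.156 in Cy3, 0.434 in Cy5 and 0.426 in the ratio. In 9 of these 22 probes the 10 spots gave both signs in Cy3, in 9 in Cy5 and in 16 in the ratio. At ASMM10m6ARRACAPOSCONTROL1000085514 the single-spot difference in Cy3 ran from -1.65 to 0.21, in a probe that was not well above background on any array. At ASMM10m6ARRACAPOSCONTROL1000041554, which was detected in Cy3 on all 10 arrays, it ran from -1.69 to -0.03.

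On some arrays the repeated spots of a probe differed with their place on the array, a pattern sought after the repeated spots had been seen. The array has 82 columns, and 48 members, 23 positive control and 25 control probes, had spots both in columns 1 to 20 and elsewhere. Wherever left and other spots of a probe are compared below, flagged spots are included, unlike in the fits. In Cy3 the spots in columns 1 to 20 were lower than the others of the same probe in 43, 41, 26, 43 and 43 of the 48 members in KO replicates 1 to 5. In WT replicates 1 to 5 this held for 18, 21, 34, 24 and 19. The mean of left minus other spots was -0.19, -0.21, -0.08, -0.26 and -0.26 in KO mice and 0.02, 0.02, -0.16, 0.01 and 0.00 in WT mice. KO replicates 1, 2, 4 and 5 and WT replicate 3 showed the drop clearly, KO replicate 3 lay between, and the other WT mice did not show it. The 4 KO arrays lay in row 1 of slide 1, and KO replicate 3 and WT replicate 3 lay at the ends of its row 2, so array place and genotype cannot be told apart. Slide 2 had both WT arrays in row 1, and they showed no drop.

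The drop was large in some members. ASMM10m6ARRACAPOSCONTROL1000041554 had 3 of its 10 spots in columns 1 to 20, and there Cy3 was below its other spots by a difference of -1.29, -1.11, 0.01, -1.21 and -1.35 in KO mice and -0.07, -0.09, -0.47, -0.03 and -0.09 in WT mice. From those 3 spots alone the KO minus WT difference was -0.98 and from the other 7 it was -0.14. ASMM10m6ARRACACONTROL1000060324, among the middle 22 members by Cy3 brightness, had 2 of its 3 spots there. Its KO minus WT difference was -0.69 from them and -0.23 from the third. Over the 48 members the KO minus WT difference in Cy3 was lower from the spots in columns 1 to 20 in 42, with a median gap of -0.10 and a widest gap of -0.84. In Cy5 it was lower in 33 of 48.

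The 2 called control probes had 1 of 3 spots on that side, and these spots weighed differently in the 2. For ASMM10m6ARRACACONTROL1000482444 the Cy3 difference was 0.71 from the left spot and 0.80 from the others, and without columns 1 to 20 the change was 0.78 with a limma adjusted p of 0.0371. For ASMM10m6ARRACACONTROL1000468964 the Cy5 difference was -1.30 from the left spot and -1.0 from the others, and without those columns the change was -1.01 and the adjusted p 0.0517, just over the threshold. Its input difference was -0.87 from the left spot and -0.35 from the others. For ASMM10m6ARRACAPOSCONTROL1000055724, with 4 of 10 spots on that side, the Cy3 difference was 0.66 from these and 0.65 from the rest. A share of 31.3% of the variance between spots of a probe was common to the same spot on all 10 arrays in Cy3, and 18.5% in Cy5.

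Mice differed in how often they were extreme. Among the 51 members tested in the ratio, KO replicate 2 was the highest KO mouse in 25 and KO replicate 3 the lowest in 25. Among WT mice, WT replicate 5 was highest in 20 and WT replicate 3 lowest in 16. In Cy3, over 65 members, KO replicate 2 was highest in 25 and lowest in 17, and KO replicate 3 was lowest in 26 and highest in 15. Among WT mice in Cy3, WT replicate 3 was lowest in 27 and highest in 16. In the ratio the deviation from the genotype median reached 1.26 for KO replicate 2, -1.45 for WT replicate 1 and -1.38 for WT replicate 3. In Cy3 it reached -1.52 for WT replicate 3.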

How the data were processed

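Spot intensity was deposited by the authors as scanner output of Agilent Feature Extraction 11.0.1.1, per the submitters' processing notes. The processed signals are background-subtracted and dye-normalized within each array, per the file headers. The Cy5 and Cy3 files of a mouse held the same scan, so each mouse counts as 1 array, and there was no dye swap, so dye and enrichment cannot be told apart.

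From these intensities, outlier spots were removed in the channel concerned (in either channel for the ratio), log2 values were averaged over the spots of a probe, each channel was scaled to its array's 75th percentile over the probes kept, and the ratio was centred on their median. The filter kept a probe if most of its spots exceeded background clearly on 5 or more of the 10 arrays, for the ratio in Cy5 and Cy3 alike. Genotypes were compared over all kept site probes by lmFit and eBayes of limma 3.58.1 (R 4.3.3), and p-values were adjusted by Benjamini-Hochberg and called under 0.05; simulated data holding 200 changed probes served to test these steps. Spot and class summaries were made in Python 3.11.15 with pandas 2.3.3. Flagged spots were kept in the values from single spots and in those from left against other spots. Class means take all members of a class, detected or not, and describe without a test; that of KO replicate 5 lacks 1 control probe in Cy5 and in the ratio, whose spots there were all flagged.

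The members and lists were chosen with earlier results of these data known. Members named singly were those called, the largest fitted rise and fall per class and comparison, the highest and lowest levels per class, the largest and smallest spot SD, and names with a shared or unusual number; any other is said to be chosen after its values were seen. The cell type markers and the targeted gene, Npr1, were not read, since the files pair no probe with a gene. The authors' deposited value table was not used, since 0 of the 66 members are in it. Alternatives varied the filter, the scaling, the background correction and the spot summary, and took the slide or replicate number as a block, slide 1 alone, and leaving out single mice; leaving out columns 1 to 20, or both mice numbered 3, was added after the data were seen.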

Additional observations from a re-analysis of the deposited data

Results flagged for a closer look

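In 62 groups of 5 mice the highest and lowest values were set against the other 4, and 4 groups held 1 mouse far from the rest by Dixon's criterion, where chance marks about 5% of groups. In the mean log2 Cy3 of the control class WT replicate 3 stood at -0.028, and the nearest WT mouse was at 0.10. In the same mouse ASMM10m6ARRACACONTROL1000060324 had a log2 Cy3 level of -0.81, with the nearest WT mouse at -0.48; that probe has 2 of its 3 spots in columns 1 to 20, where WT replicate 3 was lower than in its other columns. In the ratio of positive control minus control probes KO replicate 4 stood at -0.089, with the nearest KO mouse at 0.05, and WT replicate 1 at 0.12, with the nearest WT mouse at 0.01. The part of spot position in these values was not tested.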

How the results depend on the processing

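No member was called for the ratio in the main setting or in any of its 23 alternatives, although limma called up to 17 of all probes with normexp (offset 1), 3 with offset 50, and 1 when some single mice were left out. The 1 member called in Cy5 became 0 with no filter, spike-in scaling, normexp offset 50, without both mice numbered 3 or without columns 1 to 20, became 4 with detection required on all arrays, and ran from 0 to 2 over the single mice left out. The 1 member called in Cy3 became 0 with spike-in scaling, normexp offset 50, slide as a block or slide 1 alone, 4 with quantile normalization and 17 without both mice numbered 3, and ran from 0 to 6 over the single mice left out. Over all probes the 115 Cy5 calls became 0 (no filter, spike-in), 198 (all arrays), 63 (before dye normalization), 1 (normexp offset 50), 377 (slide block), 376 (slide 1 alone), 24 (without both mice numbered 3), 62 (without columns 1 to 20) and 0 to 145 without single mice. The 232 Cy3 calls became 7 (spike-in), 27 (normexp offset 50), 121 (offset 1), 27 (slide block), 26 (slide 1 alone), 2334 (without both mice numbered 3), 106 (without columns 1 to 20, fewer probes tested) and 43 to 1030 without single mice.

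The values showed no pairing of the mice by replicate number. Deviations of same-numbered KO and WT mice correlated between -0.25 and 0.21. The best partner carried the same number for 1 of 10 mice in the ratio and 0 of 10 in each channel. These values alone cannot show whether same-numbered mice were handled together. With the replicate block 0 members were called in Cy5 and 0 in Cy3, and 0 and 10 of all probes.

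The positive control minus control difference turned sign in the ratio with detected members alone (-0.33), class medians (-0.039), signals before dye normalization (-0.11) and without columns 1 to 20 (-0.043). In Cy5 it was 0.16 with detected members alone, -0.032 with medians, -0.32 before dye normalization and -0.093 with normexp offset 1, and in Cy3 it was 0.021 with detected members alone and 0.45 with medians. Without single mice it ran from 0.01 to 0.04 in the ratio, -0.20 to -0.17 in Cy5 and -0.22 to -0.19 in Cy3. The median spot SD was 0.235 (ratio), 0.248 (Cy5) and 0.0575 (Cy3) with outlier spots kept, 0.166 in Cy5 with every spot well above background, and 0.0393 in Cy3 without columns 1 to 20. The causes were not tested. Of 20 member changes followed through the alternatives, 2 reversed in any. The Cy3 change of ASMM10m6ARRACAPOSCONTROL1000136344 was -0.0026 with normexp offset 50. That of ASMM10m6ARRACACONTROL1000510134, near 0, was 0.17 (spike-in), 0.069 (quantile), 0.10 (before dye normalization), 0.21 and 0.11 (normexp offsets 50 and 1), 0.00081 (spot medians), 0.077 (slide block and slide 1 alone) and -0.33 to 0.20 without single mice. Low Cy5 signal over background limits the 15 members not tested there.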

Other observations

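One control probe shares its number with a site probe outside the 2 classes, a pair looked up after the values were seen. ASMM10m6ARRACACONTROL1000106524 was not well above background in Cy5 on any of the 10 arrays, and its log2 Cy3 level ran from -4.01 to -3.40. The site probe ASMM10m6ADRACA1000106524, with 1 spot, was well above background in Cy5 on all 10 arrays, and its log2 Cy3 level ran from 1.56 to 2.39. Its log2 ratio was -1.51, -1.66, -2.01, -2.12 and -1.77 in KO replicates 1 to 5 and -2.47, -2.27, -2.37, -1.95 and -1.76 in WT replicates 1 to 5. The sources used here do not say whether a shared number means a shared transcript.

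The place of a spot could be read for the single-spot probes of the whole array too. Of 13852 such probes tested in Cy3, 24.5% lay in columns 1 to 20. Of the 146 called lower in KO mice, 77 lay there (52.7%), and of the 84 called higher, 22 (26.2%). In Cy5 2398 of 10005 tested probes lay there, and 30.1% of the 93 called lower and 33.3% of the 21 called higher. The median Cy3 change was -0.11 in columns 1 to 20 and -0.05 elsewhere. The sources used here do not say how probes were placed on the array, and the part of position in those calls was not tested.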
